A study of Homo sapiens with 4 samples.

Results

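Peaks of the RNA-binding proteins HNRNPC and PABPC4 are described here in the genes of the DEAD-box and DEAH-box helicases. Members were all protein-coding genes of chromosomes 1 to 22 and X whose symbol begins with DDX or DHX and a number, with a few such genes not analysed here. This gave 52 of 19974 protein-coding genes, 37 named DDX and 15 named DHX, and each peak position was counted once under the NCBI Gene ID it was listed with. Of 9107 HNRNPC peaks 28 fell in 14 of these genes, and of 63507 PABPC4 peaks 249 fell in 42 of them.

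The cells were MDA-MB-231, an established breast cancer line, untreated apart from cross-linking with 400 mJ/cm2 of ultraviolet light at 254 nm. HNRNPC was mapped in 2 samples by cross-linking and immunoprecipitation, and PABPC4 in 2 samples by PAPERCLIP. In PAPERCLIP, reverse transcription is meant to start at poly(A) tails, so that peaks can mark mRNA 3′ ends. A listed peak need not be such an end, and introns held 60.2% of all PABPC4 peaks. The unique sequence tags of both samples of a protein were pooled into 1 peak list before deposit, so no spread between replicates could be computed and no test was made. Peak height is the number of pooled tags at the summit, is not scaled to depth, and rises with both the amount of an mRNA and its recovery, which cannot be told apart here.

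DEAD-box and DEAH-box proteins are superfamily 2 helicases, ATP-driven enzymes named after a conserved motif in their core. They unwind short RNA duplexes or strip proteins from RNA, and different members act in splicing, ribosome assembly, mRNA export, translation, decay and antiviral sensing. HNRNPC is a mostly nuclear protein that prefers runs of uridine, and PABPC4 is a poly(A)-binding protein that moves between nucleus and cytoplasm.

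The line itself was read from marker genes in the same PABPC4 list. The mesenchymal genes VIM, CAV1, AXL, MSN, CD44 and SPARC each had a 3′ UTR peak, from 10197 tags for VIM to 264 for SPARC. Of the luminal and epithelial genes, ESR1 and PGR had no 3′ UTR peak, CDH1 had 56 tags, EPCAM 88, GATA3 108 and KRT19 892. KRT19 was the luminal gene within the range of the mesenchymal ones.

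PABPC4 peaks were found in 42 of the 52 helicase genes (80.8%), against 59.4% of all protein-coding genes. HNRNPC peaks were found in 14 (26.9%), against 19.1%. All 14 genes with an HNRNPC peak also had a PABPC4 peak, as did 3731 of the 3814 protein-coding genes with an HNRNPC peak. Peaks of both proteins were thus in 26.9% of helicase genes, against 18.7% of all genes. The remaining 28 helicase genes with a PABPC4 peak had no HNRNPC peak. PABPC4 peaks lay in the 3′ UTR of 36 helicase genes (69.2%, against 49.0% of all genes), and HNRNPC peaks in the 3′ UTR of 1 (1.92%, against 1.99%). These shares describe the lists and were not tested, and since lowly expressed genes have few tags, the level of each mRNA, which was not measured here, bears on them.

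HNRNPC peaks in helicase genes were mostly intronic. Their intron share was below that of the whole list, but exons of non-coding transcripts took precedence over introns in this count. Their median height was 12.5 tags (range 6 to 58), beside 11 tags for all HNRNPC peaks. The tallest peak per gene had a median of 17.5 tags, beside 12 over all protein-coding genes with an HNRNPC peak. Introns held 19 of the 28 (67.9%, 95% Wilson interval 49.3 to 82.1), against 85.5% of all HNRNPC peaks, and exons of non-coding transcripts of the genes held 7 (25.0%, 12.7 to 43.4, against 5.93%). Without the peaks of DDX17, introns held 19 of 24 (79.2%, 59.5 to 90.8), an interval that includes the 85.5% of the whole list. Peaks of 1 gene are not independent, so these intervals cover counting error only. The tallest peaks of DDX10, DHX30, DDX17, DHX37 and DDX31 reached 58, 54, 39, 35 and 34 tags, and those of the other 9 genes reached 7 to 21.

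The sequences under the tallest HNRNPC peak are shown for DDX17, DHX37 and DDX31, whose central 25 nt were unique in the genome, read 5′ to 3′ on the gene's strand of GRCh38 (hg38), with runs of 4 or more U and the hexamer GUGUCA in capitals. The intron stretches are chr12:124969656-124969876 of DHX37 and chr9:132622520-132622731 of DDX31 on the minus strand, each the peak with flanks of 30 nt upstream and 10 nt downstream. For DDX17, the last 30 nt of the 3′ UTR peak are given, chr22:38485260-38485289 on the minus strand.
DDX17 3′ UTR: acugaaaaauaaccaUUUUaGUGUCAggcu
DHX37 intron: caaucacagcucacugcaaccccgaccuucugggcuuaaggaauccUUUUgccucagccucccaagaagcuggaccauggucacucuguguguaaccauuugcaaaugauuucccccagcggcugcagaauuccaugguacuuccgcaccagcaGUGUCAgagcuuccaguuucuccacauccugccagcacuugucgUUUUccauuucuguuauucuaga
DDX31 intron: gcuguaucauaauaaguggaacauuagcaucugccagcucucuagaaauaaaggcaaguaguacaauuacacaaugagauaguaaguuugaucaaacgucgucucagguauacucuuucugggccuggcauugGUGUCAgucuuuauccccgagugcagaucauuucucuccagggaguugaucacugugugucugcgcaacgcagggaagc

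GUGUCA stood in all 3 stretches, but within 15 nt of the peak's 3′ end in DDX17 alone. The DDX31 stretch as printed held no run of 4 U, but UUUUU occurred farther upstream, within 50 nt of the peak. The central 25 nt of the DDX10 peak occurred 43 times in the genome and those of the DHX30 peak 61 times, so tags of other copies could be among theirs. Across the 28 peaks, UUUUU occurred inside or within 50 nt upstream of 13 (46.4%, 29.5 to 64.2, against 38.8% of all HNRNPC peaks). This share was 82.1% for a run 1 U shorter and 25.0% for a run 1 U longer. GUGUCA lay within 15 nt of the 3′ end of 8 (28.6%, 15.3 to 47.1, against 37.9%). It was near the 3′ end of 1 of the 249 PABPC4 peaks, and whether it comes from the RNA or from the library was not tested.

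**Figure D1:**
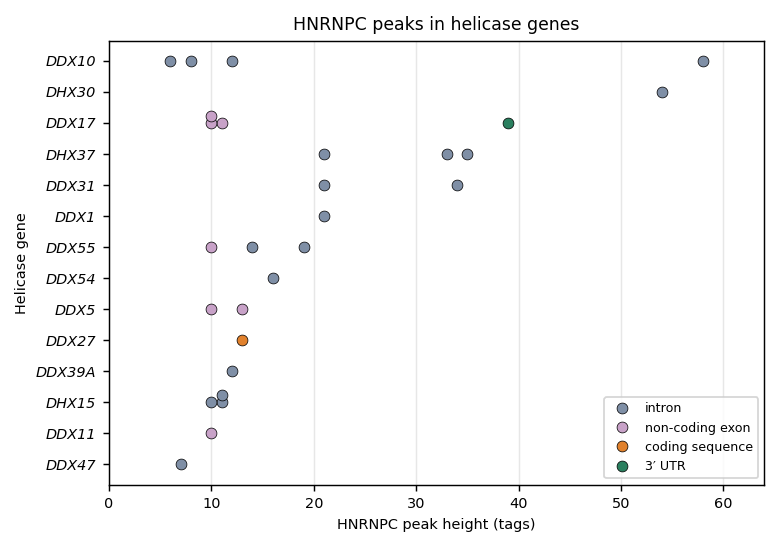
Height in tags (x axis) of each of the 28 HNRNPC peaks in the 14 helicase genes that have one (y axis), coloured by the feature at the peak centre. Equal heights in a gene are drawn one above the other. DDX10, DHX30 and DDX17 hold the tallest peaks, and DDX17 holds the only one in a 3′ UTR.

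The ribosome biogenesis helicases held 15 of the 28 HNRNPC peaks, in 7 of 16 genes, beside 19.1% of all protein-coding genes, and 1 of the 7, DDX47, was counted only through a peak in APOLD1. DDX10, a nucleolar helicase, had 4 peaks of 8, 12, 6 and 58 tags, all in introns, so that 1 peak carried most of its signal. DHX37, which acts in maturation of the small ribosomal subunit, had 3 intron peaks of 33, 21 and 35 tags and the largest summed height of any member, 89 tags. DDX55 had peaks of 14, 10 and 19 tags, DDX31 of 21 and 34, DDX54 of 16 and DDX27 of 13. The single peak listed under DDX47, of 7 tags, lay in an intron of its neighbour APOLD1 and was listed under both genes.

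DDX17 and DDX5 are close paralogs that act as transcription co-regulators and in microRNA processing. DDX17 had 4 HNRNPC peaks, 39 tags in the 3′ UTR and 11, 10 and 10 tags in exons of non-coding transcripts. DDX5 had 2, of 13 and 10 tags, both in exons of non-coding transcripts and none in the 3′ UTR. Among the other members, DHX15, which takes spliceosomes apart, had 3 intron peaks of 11, 10 and 11 tags. DHX30, a mitochondrial RNA helicase, had 1 of 54 tags, DDX1, a subunit of the tRNA ligase complex, 1 of 21, DDX39A, an mRNA export helicase, 1 of 12, and DDX11, a DNA helicase, 1 of 10. The translation group of 5 genes, the antiviral group of 3 and the germ cell group of 4 had no HNRNPC peak, and with 19.1% of all genes having one, groups of this size say little.

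The sole HNRNPC peak that overlapped a PABPC4 peak in these genes was the coding-sequence peak of DDX27 (chr20:49223355-49223459, 13 tags). It lay across a PABPC4 peak of 61 tags at chr20:49223383-49223426. The share of overlapping peaks over the whole HNRNPC list is not given here, so no trait of helicase genes is read from this count. The 3′ UTR peak of DDX17 lay 1664 nt from the nearest PABPC4 peak. The shortest distances without overlap were 117 nt in DDX17, between peaks in a non-coding exon, 143 nt in DHX37, 318 nt in DHX30 and 595 nt in DDX55.

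PABPC4 peaks of helicase genes were spread over introns, 3′ UTRs and coding sequence. Introns held 126 of 249 (50.6%, 44.4 to 56.8, against 60.2% of all PABPC4 peaks), 3′ UTRs 73 (29.3%, 24.0 to 35.3, against 29.8%) and coding sequence 40 (16.1%, 12.0 to 21.1, against 5.04%). Exons of non-coding transcripts held 9 and a 5′ UTR 1, in DHX30. The share of 3′ UTR peaks was close to that of the whole list, and the coding share was the one whose interval lay farthest above it.

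**Figure D2:**
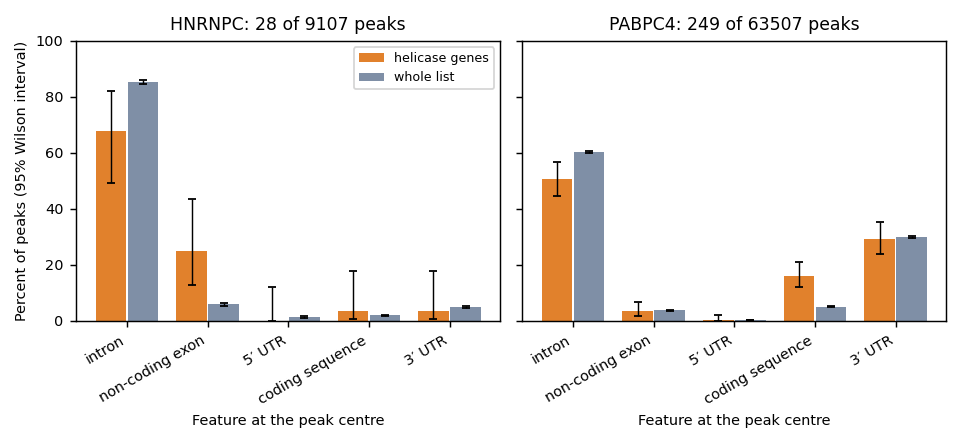
Percent of peaks (y axis, with 95% Wilson intervals) by the feature at the peak centre (x axis), for HNRNPC on the left and PABPC4 on the right, in helicase genes and in the whole list. The coding-sequence bar of PABPC4 stands at 16.1% in helicase genes and 5.04% in the whole list, while the 3′ UTR bars are at 29.3% and 29.8%.

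At mRNA 3′ ends, the tallest PABPC4 peak in a gene's own 3′ UTR ranged from 9 tags in DDX10 to 1191 in DDX5, with a median of 76 over 36 genes. With every peak listed under a member's gene ID counted, the median was 80.5, beside 73 over the 9780 protein-coding genes with a 3′ UTR peak. A poly(A) signal, AAUAAA or AUUAAA, is read by the cleavage machinery and stood in the last 40 nt of 20 of these 36 peaks, 18 of them without an A-rich stretch, meaning 6 A in a row or 7 in 10 nt within 50 nt downstream. Such a stretch can prime reverse transcription inside an RNA, and 9 of the 36 peaks had one. The peak ended within 50 nt of an annotated 3′ end in 20 genes and of the last annotated end in 17.

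The last 30 nt of the tallest 3′ UTR peak are shown for 6 of the 10 genes with the tallest peaks, those in which it held a poly(A) signal, which is in capitals. All are 5′ to 3′ on the gene's strand of GRCh38. DDX5 is chr17:64499618-64499647, DDX17 is chr22:38483439-38483468, DDX23 is chr12:48829756-48829785, DDX56 is chr7:44565805-44565834 and DHX15 is chr4:24527469-24527498, all on the minus strand, and DDX1 is chr2:15631079-15631108 on the plus strand.
DDX5 3′ end: uuccAAUAAAaaauauuugaagacugaauu
DDX17 3′ end: uagguauaAAUAAAaacacuguugacaaua
DDX1 3′ end: ugaaAAUAAAuuugaugacuauauuuucau
DDX23 3′ end: agAAUAAAuacaugaauauuaagacuguua
DDX56 3′ end: ugacaacagAAUAAAaauuuuagcugcccc
DHX15 3′ end: uucAAUAAAgucuauuuauacuaauuuugg

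The signal began 26 nt before the peak's end in DDX5 and DDX1, 22 nt in DDX17, 28 nt in DDX23, 21 nt in DDX56 and 27 nt in DHX15. In 4 of the 10, DHX33, DDX21, DDX42 and DDX6, the tallest peak held no such signal, and in DHX33, DDX21 and DDX6 an A-rich stretch followed it. The DDX42 peak, of 183 tags, ended 2 nt before the last annotated end without either feature.

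**Figure D3:**
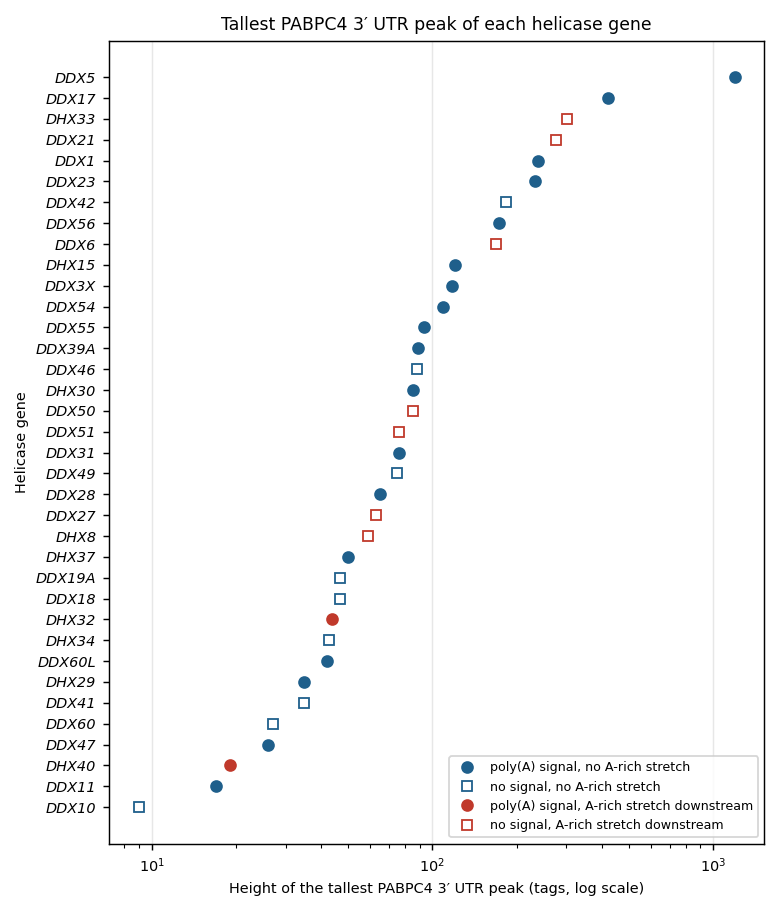
Height in tags (x axis, log scale) of the tallest PABPC4 peak in each gene's own 3′ UTR, for the 36 helicase genes that have one (y axis). Filled circles have a poly(A) signal in the last 40 nt and red symbols an A-rich stretch downstream. DDX5 stands highest at 1191 tags, DDX17 follows at 423, and DDX10 is lowest at 9.

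DDX5 and DDX17 had the tallest 3′ UTR peaks of all members but ended differently. In DDX5 the peak of 1191 tags lay 1364 nt upstream of the last annotated end, where a second peak had 49 tags, so the upstream one held 96.0% of the gene's summed 3′ UTR peak height. It ended 296 nt past the nearest annotated end, and its central 25 nt occurred at 2 places in the genome, so tags of a copy could be among them. In DDX17 the peaks of 423 and 169 tags lay 1 and 65 nt before the last annotated end, and the second had an A-rich stretch downstream. The HNRNPC peak of DDX17 lay 1822 nt upstream of that end.

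Among the translation and turnover helicases, DDX6 takes part in the repression and decapping of mRNAs in processing bodies. It had 6 3′ UTR peaks of 35, 73, 44, 50, 169 and 124 tags. The 169 and 124 tag peaks ended 4035 and 4254 nt upstream of the last annotated end, while the peak nearest that end had 35 tags. An A-rich stretch followed 4 of the 6, the tallest included. DDX3X, which promotes translation of structured mRNAs, had 3 peaks of 102, 117 and 66 tags, none with an A-rich stretch, and the latter pair ended 6 nt before and 4 nt past annotated ends. DHX34, a nonsense-mediated decay factor, reached 43 tags and DHX29, an initiation factor helicase, 35.

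The ribosome biogenesis group had a 3′ UTR peak in 14 of 16 genes, beside 49.0% of all protein-coding genes, with a median of 76 tags, beside 73 for all genes. DHX33 was tallest at 302 tags, but its peak had an A-rich stretch downstream and was listed under C1QBP too. DDX21, a nucleolar helicase of ribosomal RNA processing, had 4 peaks of 67, 59, 275 and 185 tags. The 275 tag peak lay 1366 nt upstream of the last end and the 185 tag peak ended 3 nt past it with a poly(A) signal, and both had an A-rich stretch downstream. Its paralog DDX50 reached 85 tags. DDX54 had a single 3′ UTR peak of 109 tags, 1321 nt upstream of its last annotated end, with a poly(A) signal and no A-rich stretch. DDX10 had many intron peaks but only 9 tags in its 3′ UTR.

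**Figure D4:**
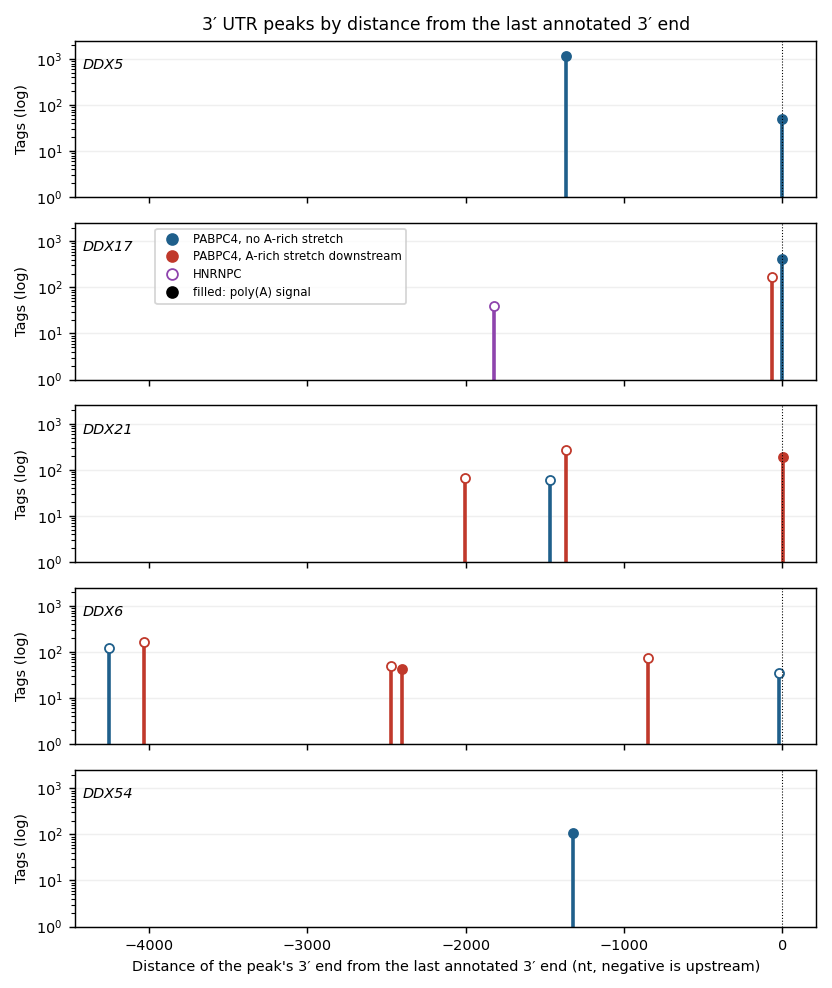
3′ UTR peaks of DDX5, DDX17, DDX21, DDX6 and DDX54 by the distance of the peak's 3′ end from the last annotated 3′ end (x axis, nt) and height (y axis, tags, log scale), with HNRNPC in purple, PABPC4 in red where an A-rich stretch follows and in blue where none does. Filled points have a poly(A) signal. The tallest peaks of DDX5, DDX21, DDX6 and DDX54 lie 1364, 1366, 4035 and 1321 nt upstream of the last end, and that of DDX17 lies 1 nt before it.

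The splicing helicases had a 3′ UTR peak in 6 of 10 genes, near the 49.0% of all genes, with a median of 104 tags. DDX39B and DHX16, among the 4 without one, lie in a stretch of chromosome 6 that is empty in both lists. DDX23, of the tri-snRNP, had 231 tags at its annotated end, DDX42 183 and DHX15 120, and the lowest, DDX41, 35. DDX46, which acts at branch-site recognition, had 6 3′ UTR peaks of 26 to 88 tags, 4 of them without an A-rich stretch, the most of any member. By peaks in a gene's own 3′ UTR, DDX18 and DDX3X came next with 3 each. By gene ID as listed, DDX47 also had 3, but all save 1 of them lay in APOLD1. Across the set, 13 genes had 2 or more such peaks by gene ID (25.0%, against 16.5% of all genes). The count was 12 with peaks in the gene's own features and 7 with peaks at or above the median height of the list.

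In the smaller groups, DDX1 reached 237 tags with a peak ending 7 nt past the annotated end, and DDX11 17. The mitochondrial helicases DHX30 and DDX28 reached 85 and 65 tags. Of the mRNA export helicases, DDX39A reached 89 tags and DDX19A 47, while DDX19B had no 3′ UTR peak. DDX19A had 2 3′ UTR peaks of 47 tags each. The central 25 nt of the peak 397 nt upstream of the last annotated end occurred 167 times in the genome. Those of the peak ending 1 nt before that end were unique. The upstream peak was taken as the tallest in the counts above. The interferon-induced DDX60 and its paralog DDX60L reached 27 and 42 tags. Of the germ cell genes, DDX4 alone had a PABPC4 peak, of 14 tags and outside the 3′ UTR. Among members without an assigned role, DHX32 reached 44 tags and DHX40 19.

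A PABPC4 peak in coding sequence was present in 25 of the 52 helicase genes (48.1%), against 10.1% of all protein-coding genes. Among genes with any PABPC4 peak these were 25 of 42 (59.5%, 44.5 to 73.0) and 2027 of 11864 (17.1%, 16.4 to 17.8). The helicases have longer coding sequences, with a median of 2215.5 nt against 1320 nt, and more PABPC4 peaks per gene, with a median of 5 against 3. The part of these in the difference was not tested. Genes with a coding peak had a median coding length of 2424 nt among the helicases and 1942.5 nt among all genes. For genes with a PABPC4 peak but no coding peak, the medians were 1998 nt and 1407 nt.

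An A-rich stretch followed 28 of the 40 coding peaks (70.0%, 54.6 to 81.9), close to the 62.0% of all coding peaks in the list. It followed 91 of 126 intron peaks (72.2%, against 71.2%) and 22 of 73 3′ UTR peaks (30.1%, against 31.9%). A poly(A) signal stood in the last 40 nt of 2 coding peaks, 6 intron peaks and 31 3′ UTR peaks (42.5%, against 47.1%). Peaks in coding sequence and introns thus mostly had an A-rich stretch and no signal. In 3′ UTR peaks an A-rich stretch was less frequent and a signal more frequent, and 26 of the 73 had a signal without such a stretch.

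The letters around the tallest coding peaks are shown because they show what such a stretch looks like. Each line holds the last 20 nt of the peak and the next 50 nt of GRCh38, all on the plus strand, with runs of 4 or more A in capitals. DDX55 is chr12:123619658-123619727, DDX18 is chr2:117817672-117817741, the upstream peak of DDX46 is chr5:134770958-134771027 and its downstream peak is chr5:134773729-134773798, and DDX21 is chr10:68956291-68956360. The genomic letters can run past the exon into the intron.
DDX55 coding: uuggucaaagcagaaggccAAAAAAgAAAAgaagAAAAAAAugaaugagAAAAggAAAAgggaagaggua
DDX18 coding: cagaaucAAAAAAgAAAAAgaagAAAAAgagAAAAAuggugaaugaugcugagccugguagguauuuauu
DDX46 upstream coding: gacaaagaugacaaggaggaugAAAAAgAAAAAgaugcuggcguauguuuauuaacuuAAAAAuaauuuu
DDX46 downstream coding: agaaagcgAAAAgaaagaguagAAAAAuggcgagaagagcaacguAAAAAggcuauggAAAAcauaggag
DDX21 coding: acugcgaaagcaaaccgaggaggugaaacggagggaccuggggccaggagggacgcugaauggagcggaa

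The coding peaks of DDX55 (255 tags), DDX18 (221) and DDX46 (217 and 156) stood at runs of A broken by single G letters or short spacers. All 4 were taller than the tallest 3′ UTR peak of the same gene, which had 93 tags in DDX55, 47 in DDX18 and 88 in DDX46. The DDX55 coding peak also had a poly(A) signal in its last 40 nt, before the letters shown. The coding peak of DDX21, of 564 tags, was the tallest of the 40. Of the 25 genes with a coding peak, 12 had one without an A-rich stretch, DDX21 among them. The DDX21 peak lay in the first coding exon and had no poly(A) signal. Unlike the 4 peaks above, it held no run of 4 A in this window. Its central 25 nt were unique in the genome. It was taller than the 275 tags of the tallest DDX21 3′ UTR peak. DHX29 had 3 coding peaks of 62, 71 and 76 tags, each with an A-rich stretch and each taller than its 3′ UTR peak.

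**Figure D5:**
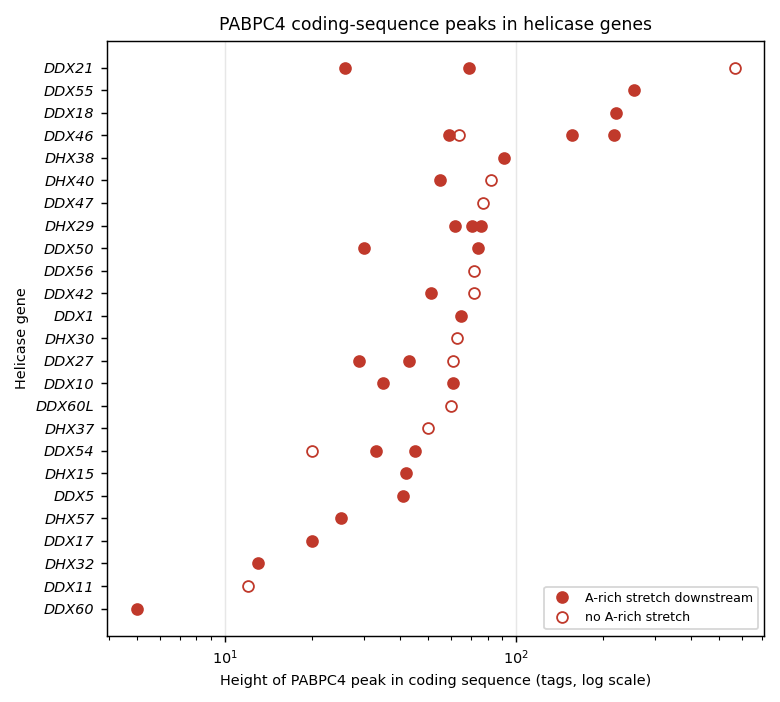
Height in tags (x axis, log scale) of each of the 40 PABPC4 coding-sequence peaks in the 25 helicase genes that have one (y axis). Filled points have an A-rich stretch downstream. DDX21 holds the tallest at 564 tags, an open point, and those of DDX55 and DDX18, at 255 and 221 tags, are filled.

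The most PABPC4 peaks were listed under DDX46 and DDX47, with 28 each, but many of these lay outside the helicase's own transcript ends. Under DDX47, 26 of the 28 lay in features of APOLD1 and were listed under both genes, and its own peaks were 1 of 77 tags in coding sequence and 1 of 26 tags in the 3′ UTR. Under DDX46, 8 lay more than 400 nt past the last annotated end, in introns of a transcript that runs on into C5orf24, and 3 of these were listed under C5orf24 too. DDX10 followed with 13, DDX50, DDX6 and DHX57 with 10 each, and DDX19A, DDX21, DDX54 and DHX8 with 9 each. Of the 9 listed under DDX19A, 6 were listed under DDX19B too, so that 3 lay in DDX19A itself. In all, 37 of the 249 positions carried 2 or more gene IDs, and 56 of the 126 intron peaks had central sequence found elsewhere in the genome. Shares of both over the whole list are not given here, so no trait of helicase genes is read from these counts.

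Intron PABPC4 peaks of helicase genes ran from 7 to 117 tags, with a median of 35, the same as for all intron peaks in the list, and below the median of 55 of the helicase 3′ UTR peaks. The tallest was in DHX8, a splicing helicase that releases spliced mRNA, where 7 intron peaks had 24 to 117 tags and the taller of its 3′ UTR peaks had 59. The 6 intron peaks of DDX50 had 39 to 113 tags, and the sequence at the centre of the 113 tag peak occurred 249 times in the genome. A poly(A) signal without an A-rich stretch was the pattern of the tallest own 3′ UTR peak in 18 of 36 genes. Over all 73 3′ UTR peaks of helicase genes, 26 had this pattern, beside 7300 of 18917 in the whole list. The pattern was found at 1 of the 126 intron peaks (0.794%, 0.140 to 4.36, against 1.99% of all intron peaks). That intron peak of 15 tags lay in an intron of APOLD1.

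Of the 42 genes with a PABPC4 peak, 36 had one in a 3′ UTR, beside 9780 of 11864 over all protein-coding genes. The remaining 6 had PABPC4 peaks but none in a 3′ UTR. DHX57 had 10, of which 8 were in introns with 9 to 78 tags and 1 in coding sequence with 25. DHX35, a splicing helicase, had 4 intron peaks of 53, 38, 67 and 22 tags. DHX38, which acts in the later steps of splicing, had a coding peak of 91 tags and an intron peak of 9. DDX59 had 1 intron peak of 24 tags, whose centre occurred 22618 times in the genome. DDX19B and DDX4 completed this set.

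Members with and without an HNRNPC peak had similar median gene lengths, 29.6 kb for the 14 with a peak and 30.1 kb for the 38 without. Over all protein-coding genes the medians were 63.7 kb with an HNRNPC peak and 18.5 kb without. For PABPC4 the medians were 32.3 kb for members with a peak and 21.3 kb for those without, and over all genes 36.9 kb and 12.1 kb.

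There were 10 of 52 helicase genes with no peak in either list: DDX20, DDX24, DDX25, DDX39B, DDX43, DDX52, DDX53, DHX16, DHX36 and DHX58. Of all 19974 protein-coding genes, 8110 had no PABPC4 peak. DDX25, DDX43 and DDX53 are germ cell or cancer-testis genes, and DHX58 is an antiviral sensor. For 4 others no statement on binding is made. DDX39B, the splicing and export paralog of DDX39A, and DHX16 lie in a stretch of chromosome 6 of 5131 kb in which none of 172 protein-coding genes had a PABPC4 peak. DDX52 lies in such a stretch of 3122 kb with 59 genes, and DDX24 in one of 1784 kb with 27 genes. DHX36 lies in a gap of 2458 kb with 5 genes, and DDX20 in one of 686 kb with 3. Why these stretches are empty in the lists used here was not tested.

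Outside the family names, 11 other superfamily 2 RNA helicases were read in the same way. PABPC4 peaks were found in 8 of them, beside 59.4% of all protein-coding genes, with 3′ UTR heights of 1103 tags in EIF4A1 and 368 in EIF4A2, the initiation helicases, 173 in EIF4A3 of the exon junction complex, 143 in ASCC3, 42 in MTREX of the nuclear exosome, 40 in SUPV3L1, 37 in YTHDC2 and 36 in SNRNP200. HNRNPC peaks were found in EIF4A2, MTREX and YTHDC2, of 16, 9 and 7 tags. SKIC2, TDRD9 and DQX1 had neither, and SKIC2 lies in the same empty stretch of chromosome 6. EIF4A1 was thus at a height close to that of DDX5, and no other gene of this list exceeded DDX17.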

How the data were processed

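The peak lists of 2 HNRNPC samples and 2 PABPC4 samples of MDA-MB-231 cells were used, 1 pooled list per protein. Per the labels and the study's methods, the authors collapsed reads by molecular identifier (UMI-tools), trimmed them (cutadapt), mapped them to hg38 with BWA 0.7.17 and, after removal of PCR duplicates, defined peaks by valley seeking. This was stated for HNRNPC, and the PABPC4 list has the same layout. The labels name irCLIP for HNRNPC and the list's own name another form of CLIP. The signal deposited by the authors is the peak height in unique tags, and a text column gives the gene ID, the height expected by chance and the p-value. Read totals per library were not analysed here. The sequences under the DDX10 and DHX30 peaks of HNRNPC are not reported here.

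Positions listed under several gene IDs were joined (1281 surplus HNRNPC and 6271 surplus PABPC4 entries), and 0 positions ran past a chromosome end of GRCh38. The feature of a peak was read at its midpoint, strand by strand, from GENCODE 44, with the precedence 3′ UTR, coding sequence, 5′ UTR, exon of a non-coding transcript, intron. Shares have 95% Wilson intervals. Python 3.11.15, pysam 0.24.0, NumPy 2.4.6 and SciPy 1.17.1 were used, and the motif, feature and interval functions were tested on simulated data. Genes were named by rank: most peaks, tallest peaks, every gene with an HNRNPC peak in a 3′ UTR or coding sequence, the tallest and lowest of each role group, genes without a peak, and paralog pairs. The members, role groups, cell line markers, other helicases and motifs were chosen with earlier results of these data known. Alternatives were a p-value limit, a height limit, peaks with 1 gene ID, assignment by the 3′ end, leaving out the gene with most peaks, other motif definitions and, added after the data were seen, peaks in the gene's own features and every alternative for coding-sequence peaks.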

Additional observations from a re-analysis of the deposited data

How the results depend on the processing

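No paired analysis was possible because both libraries of a protein share 1 pooled list, and leaving out a replicate could not be run for the same reason. Over 15 results and 86 alternatives, 79 values stayed within 1.5-fold of a count or within the Wilson interval of a share, and 7 moved further. Keeping peaks at or above the median height of their list, 11 tags for HNRNPC and 38 for PABPC4, lowered the genes with 2 or more PABPC4 3′ UTR peaks without an A-rich stretch from 13 to 7, the intron share of PABPC4 peaks from 50.6% to 40.1% and the A-rich share of intron peaks from 72.2% to 62.7%, and raised the 3′ UTR share from 29.3% to 35.4%. Keeping positions under 1 gene ID gave an intron share of 44.3%. The share of HNRNPC peaks with a U run was 82.1% with UUUU and 25.0% with UUUUUU in place of UUUUU, so it depends on the definition. Genes with a PABPC4 coding peak numbered 20 to 25, and the coding share was 15.7 to 19.7%. The cause of these shifts was not tested. In low peaks, 1 tag more or less can decide whether a peak is listed, so absence from a list does not show absence of binding.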
